A study of Homo sapiens with 12 samples.

Results

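Transcript levels after 4 h of 50 nM THZ1 were compared with those after 2 h in KYSE510 and TE7, 2 established human cell lines labelled as esophageal squamous cell carcinoma. The comparison used 4 of the 12 RNA-seq libraries of the study, chosen by their labels: KYSE510 at 2 h and at 4 h, and TE7 at 2 h and at 4 h, paired within line. Per the labels, KYSE510 was grown in RPMI-1640 and TE7 in DMEM, every one of these libraries received THZ1 at 50 nM, and no genetic change was introduced. Each line gave 1 library per time point, so the lines stood in as replicates (n = 2), and errors and p-values measure only the spread between libraries, those of 6 h and 12 h at the same dose included. DMSO libraries were not used, and none is labelled 2 h or 4 h, so hours of THZ1 and hours after handling or in culture cannot be told apart. The authors deposited gene levels as FPKM (fragments per kilobase of transcript, scaled to the mapped fragments of the library), a unit already corrected for gene length.

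THZ1 is a covalent inhibitor of CDK7, the kinase of the general transcription factor TFIIH that phosphorylates the tail of RNA polymerase II, and it also binds the related kinases CDK12 and CDK13. When transcription is restrained, the level of an mRNA follows its own decay, so mRNAs that are degraded quickly are the ones whose levels can move within hours. Immediate-early genes encode such mRNAs. They are transcribed without new protein synthesis after growth factor, cytokine or stress signals, and many of their transcripts carry AU-rich elements that direct rapid degradation.

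The 4 libraries summed to 451155 to 614395 FPKM, and 12784 to 13575 genes reached 1 FPKM in them. The sources used here give no fragment totals. The authors' upper 95% bound exceeded the value of the median gene by 7.29% to 7.56%, a measure of counting error alone. The squamous keratin gene KRT5 stood at 1222 to 1437 FPKM and EPCAM at 122 to 170 FPKM in the 4 libraries. Markers of leukocytes, endothelium and fibroblasts summed to 3.98 to 12.4 FPKM, 0.109 to 0.209 FPKM and 4.20 to 8.44 FPKM, with CD68 and COL1A1 giving most of the leukocyte sum and the KYSE510 fibroblast sum, and PECAM1 was listed at 0. MT-CO1, a mitochondrially encoded cytochrome c oxidase subunit, was listed at 0 FPKM in both KYSE510 libraries and at 5773 and 6006 FPKM in TE7, so mitochondrially encoded genes were left out of the comparison of lists. In these bulk libraries fewer cells of a type and less RNA per cell cannot be told apart.

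From 2 h to 4 h the largest differences shared by both lines, among genes at or above 5 FPKM, were towards lower levels. EGR1, JUN, FOSB, EGR3, IL8, CXCL1, BCL3, ZFP36, PPP1R10, PPP1R15A, KDM6B, ZBED5, ZNF561, FADD, PLK3 and the long non-coding RP6-99M1.2 were at least 2-fold lower at 4 h in both lines. These 16 genes are 0.108% of the 14797 tested, and 1 gene (0.00676%), the processed pseudogene RP4-800M22.1, was at least 2-fold higher. The fold was taken on log2(FPKM + 1), which understates changes of low genes, and the higher time point had to reach 5 FPKM in both lines. At 1.5-fold, 125 genes (0.845%) were lower and 8 (0.0541%) were higher. The authors' bounds for 2 h and 4 h did not overlap in either line for 16 of the 16 genes lower by 2-fold, for 124 of the 125 and for 7 of the 8. Over all tested genes the bounds were apart in both lines for 13.9% in the lower direction and 5.26% in the higher. The bounds measure counting error, and the step genes were chosen by their fold in the same libraries, so this non-overlap is no separate support.

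None of these differences passed the test across all genes. With limma on the 8 libraries at 50 nM (2, 4, 6 and 12 h, with cell line as a block), 0 of 14797 genes (0%) reached an adjusted p under 0.05, while 1722 had an unadjusted p under 0.05. The smallest adjusted p was 0.139, for JUN. The outcome depended on whether the 12 h libraries of both lines were in the fit. With either of them left out, the other is fitted exactly by its own time term. Such a fit is in effect that on the libraries of 2, 4 and 6 h and is no separate alternative. A fit on the 4 libraries of 2 h and 4 h alone called 445 of 14317 genes higher (3.11%) and 1515 lower (10.6%). One on the 6 libraries of 2, 4 and 6 h called 76 and 398 of 14580. All 16 genes lower by 2-fold were called in the 4-library and in the 6-library fits, as were 125 and 114 of the 125 genes lower by 1.5-fold. These genes were chosen for a large change shared by both lines in the same 2 h and 4 h libraries. Their calls therefore follow largely from the choice and are no separate support. The 4-library fit rests on 1 residual degree of freedom, with 6.66 more from the prior variance, so values below are given with limma's standard error from the 8 libraries and as levels in each library.

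Over all tested genes the differences were small, with a median of -0.05 in KYSE510 and -0.04 in TE7 on the log2(FPKM + 1) scale. In both lines 6645 genes (44.9%) were lower and 3872 (26.2%) were higher at 4 h. FPKM is relative to the mapped fragments of each library, and that split depends on scaling. It became 4287 lower and 6230 higher after median-of-ratios scaling, 3386 and 7329 after upper-quartile scaling, and 8420 and 2396 with equal sums of FPKM. Upper-quartile scaling moved the median of the fitted changes from -0.06 to 0.08. Across the 8444 genes at or above 5 FPKM in both lines at 2 h the changes in KYSE510 and TE7 correlated at r = 0.718, a description across genes that share libraries and are not independent replicates. IMMP1L and TMSB4XP6 were the only tested genes reaching 5 FPKM at either time in each line that differed by 1.5-fold or more in opposite directions, both higher in KYSE510 and lower in TE7.

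**Figure D1:**
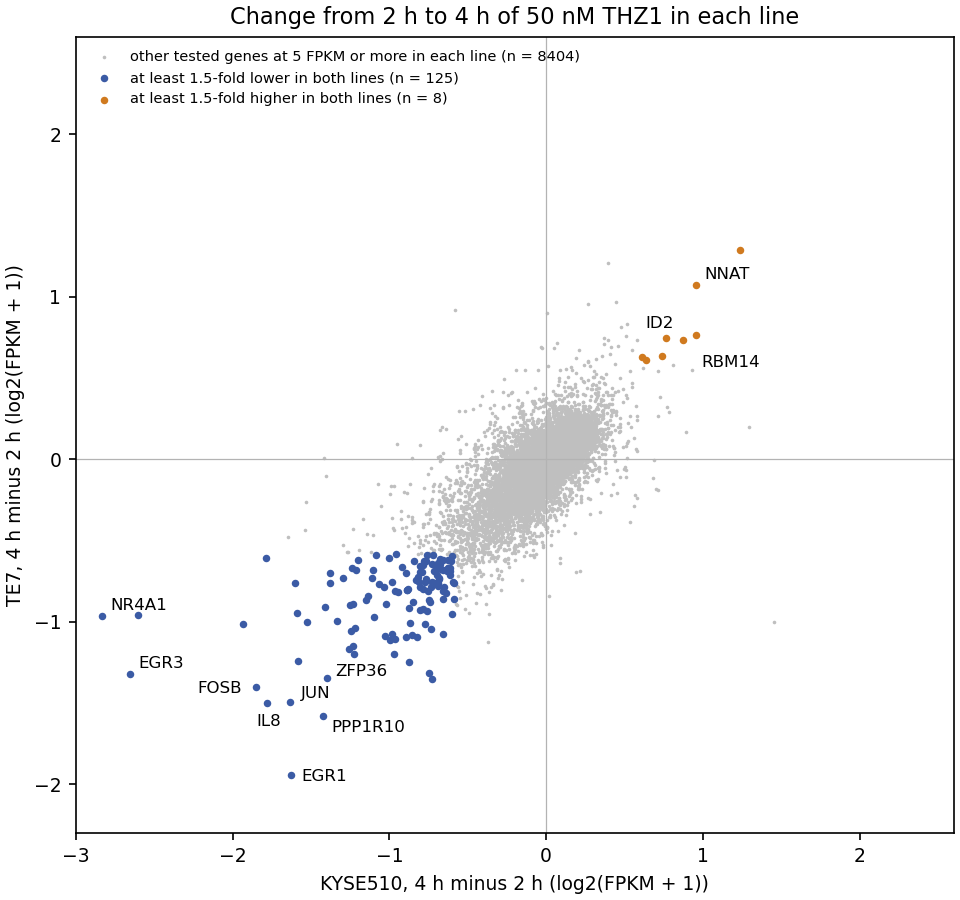
Change from 2 h to 4 h of 50 nM THZ1 in KYSE510 (horizontal axis) and TE7 (vertical axis), each as the difference in log2(FPKM + 1) between 1 library and another. Points are genes: the 125 at least 1.5-fold lower in both lines reach -2.83 in KYSE510 (NR4A1) and -1.95 in TE7 (EGR1), and the 8 at least 1.5-fold higher stay at or below 1.29. Grey points are the other tested genes that reached 5 FPKM in each line; TMSB4XP6 lies outside the axes.

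Immediate-early genes were lower at 4 h in nearly the whole list. Of the 26 tested immediate-early genes, 24 were lower in both lines and 0 were higher, with a list median of -1.12 in KYSE510 and -0.55 in TE7, beside 44.9% lower and medians of -0.05 and -0.04 over all tested genes. Of the 26, 11 were among the 125 genes lower by 1.5-fold and 5 among the 16 lower by 2-fold, 0 passed over all genes by limma, and 20 were called lower in the 4-library fit, beside 10.6% of all genes. The exceptions were FOS and SRF. FOS, which encodes the founding Fos subunit of AP-1, went in KYSE510 from 40.5 to 60.3 FPKM and in TE7 from 22.3 to 18.1 FPKM. SRF, the serum response factor that drives many of these genes, stood at 34.4 and 30.5 FPKM in KYSE510 and at 27.9 and 28.1 FPKM in TE7.

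EGR1 (ENSG00000120738; hg19 chromosome 5, 137801179 to 137805004), a zinc finger activator induced by growth factors, went in KYSE510 from 141 to 45.0 FPKM and in TE7 from 61.2 to 15.2 FPKM. Both libraries of 4 h lay below both libraries of 2 h. The mean change was -1.79 ± 0.28 (limma SE, n = 2 lines; adjusted p = 0.186). JUN (ENSG00000177606; chromosome 1, 59246465 to 59249785), the leading Jun subunit of AP-1, went in KYSE510 from 16.7 to 4.71 FPKM and in TE7 from 22.8 to 7.45 FPKM. Its change of -1.56 ± 0.12 was nearly the same in the lines, -1.63 in KYSE510 and -1.50 in TE7. FOSB (ENSG00000125740; chromosome 19, 45971253 to 45978437), another Fos subunit, went from 45.8 to 12.0 FPKM and from 31.9 to 11.5 FPKM, and again the time points did not overlap.

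The sequence just before the start of EGR1, JUN and FOSB is shown because these early factors lay far below their 2 h level in both lines, and that of NXF1 and ID2 because they were among those at higher levels at 4 h. IL8 (CXCL8 in RefSeq) stands for the chemokine genes. Each stretch is the 120 bases before the RefSeq start, 5′ to 3′ on the gene's strand, from GRCh38.p14; the genes were chosen after their values were seen. Capitals mark matches on either strand to the TATA box TATAAA, to the CCAAT box, to the Sp1 core GGGCGG or to the ETS core written as CCGGAAG. They are chr5:138465359-138465478 (plus strand) for EGR1, chr1:58784048-58784167 (minus) for JUN, chr19:45467876-45467995 (plus) for FOSB, chr4:73740449-73740568 (plus) for IL8, chr11:62805441-62805560 (minus) for NXF1 and chr2:8681936-8682055 (plus) for ID2.
EGR1: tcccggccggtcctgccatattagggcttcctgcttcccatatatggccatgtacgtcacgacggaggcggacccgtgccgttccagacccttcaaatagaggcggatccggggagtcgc
JUN: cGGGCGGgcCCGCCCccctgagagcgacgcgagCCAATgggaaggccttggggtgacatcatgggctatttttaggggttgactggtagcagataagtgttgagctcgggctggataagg
FOSB: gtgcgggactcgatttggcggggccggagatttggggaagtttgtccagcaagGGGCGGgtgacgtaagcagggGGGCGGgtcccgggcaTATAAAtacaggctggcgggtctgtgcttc
IL8: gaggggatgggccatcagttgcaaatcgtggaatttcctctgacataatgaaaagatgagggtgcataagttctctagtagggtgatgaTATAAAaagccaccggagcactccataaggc
NXF1: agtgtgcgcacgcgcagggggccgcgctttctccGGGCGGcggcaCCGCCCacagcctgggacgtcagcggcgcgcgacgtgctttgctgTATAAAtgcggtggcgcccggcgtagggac
ID2: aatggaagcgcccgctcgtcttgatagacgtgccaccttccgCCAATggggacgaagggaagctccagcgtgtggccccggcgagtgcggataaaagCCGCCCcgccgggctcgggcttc
FOSB, IL8 and NXF1 each hold TATAAA, starting 30, 31 and 30 bases before the start, so the motif stands before genes at lower and at higher levels. EGR1 holds none of the capitalised motifs in this stretch.

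Other immediate-early genes were lower too, EGR3 and NR4A1 by more in KYSE510 than in TE7. EGR3 (ENSG00000179388), a sister gene of EGR1, went in KYSE510 from 31.6 to 4.19 FPKM and in TE7 from 8.58 to 2.83 FPKM, a change of -2.65 and -1.32. NR4A1 (ENSG00000123358), an orphan nuclear receptor, went in KYSE510 from 134 to 17.9 FPKM and in TE7 from 22.4 to 10.9 FPKM, the largest change in KYSE510 among the 125 genes at -2.83 and a change of -0.97 in TE7. RP11-1100L3.8, a non-coding gene whose locus lies inside that of NR4A1, gave -2.60 and -0.96, and reads of overlapping genes may be split between them. ATF3, a stress-induced bZIP factor, went from 47.7 to 15.2 FPKM and from 9.37 to 4.38 FPKM. JUNB went in KYSE510 from 136 to 51.5 FPKM and in TE7 from 186 to 114 FPKM. FOSL1, the Fos subunit with the highest level here, went from 157 to 100 FPKM and from 316 to 254 FPKM, so that its levels at 4 h overlapped those at 2 h between lines. KLF4 was lower by 0.35 in KYSE510 and by 0.19 in TE7 (72.1 to 56.3 FPKM and 40.9 to 35.7 FPKM).

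Chemokine and NF-kB genes were lower as a group. Of 20 tested NF-kB factors and targets, 17 (85.0%, beside 44.9% over all tested genes) were lower in both lines and 1 was higher, with medians of -0.61 in KYSE510 and -0.22 in TE7, and 0 passed over all genes. IL8 (ENSG00000169429; chromosome 4, 74606223 to 74609433), a neutrophil-attracting chemokine, went in KYSE510 from 73.0 to 20.5 FPKM and in TE7 from 45.5 to 15.4 FPKM. Its change was -1.64 ± 0.19 (limma adjusted p = 0.166) and the time points did not overlap. CXCL1 (ENSG00000163739), which lies near IL8 in the chemokine cluster and acts on the same receptor, went from 80.9 to 33.5 FPKM and from 49.2 to 23.1 FPKM (-1.15 ± 0.30, limma adjusted p = 0.263). The cluster's CXCL2 was low throughout, with 1.83 and 1.60 FPKM in KYSE510 and 2.25 and 1.90 FPKM in TE7. BCL3 (ENSG00000069399), an IkB-like partner of p50 and p52, gave -1.22 in KYSE510 and -1.20 in TE7 (28.5 to 11.7 FPKM and 11.6 to 4.51 FPKM). NFKBIA, the inhibitor IkB alpha, gave -0.72 and -0.59, with 97.5 and 58.9 FPKM in KYSE510 and 75.4 and 49.7 FPKM in TE7. The member higher in both lines was RELB, at 19.9 and 22.2 FPKM in KYSE510 and 1.87 and 2.75 FPKM in TE7.

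Genes that restrain or start EGF receptor and MAPK signalling followed the same direction with smaller values. Of 23 tested, 17 (73.9%, beside 44.9% over all tested genes) were lower in both lines and 1 (ETV4) was higher. None passed over all genes, and the medians were -0.46 in KYSE510 and -0.22 in TE7. DUSP1, a phosphatase that inactivates MAP kinases, went in KYSE510 from 12.2 to 5.01 FPKM and in TE7 from 5.07 to 2.38 FPKM (-0.99 ± 0.14, limma adjusted p = 0.166). IER3 went from 358 to 171 FPKM and from 94.2 to 54.9 FPKM, and PHLDA1 from 27.4 to 9.92 FPKM and from 38.8 to 22.5 FPKM. DUSP6, the ERK phosphatase, differed between the lines, at -1.65 in KYSE510 (10.2 to 2.58 FPKM) and -0.48 in TE7 (76.8 to 54.8 FPKM). The EGF receptor ligand gene HBEGF gave -1.51 in KYSE510 (22 to 7.06 FPKM) and -0.22 in TE7 (4.12 to 3.4 FPKM). Whether these line differences exceed the spread could not be tested with 1 library per line and time.

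PPP1R10 (ENSG00000204569; chromosome 6, 30568177 to 30586389), the nuclear targeting subunit of protein phosphatase 1 that acts in transcription termination, went in KYSE510 from 8.42 to 2.51 FPKM and in TE7 from 6.28 to 1.44 FPKM. Its change was -1.50 ± 0.20 (limma adjusted p = 0.166), second to EGR1 in TE7 among the 16. ZC3H4, another restrainer of non-productive transcription, was lower by 0.87 in KYSE510 (9.41 to 4.68 FPKM) and by 1.25 in TE7 (9.71 to 3.50 FPKM). ZFP36 (ENSG00000128016), which binds AU-rich elements and speeds the decay of cytokine mRNAs, went from 21.3 to 7.44 FPKM and from 33.2 to 12.4 FPKM (-1.37 ± 0.28, limma adjusted p = 0.218). Its relative ZFP36L1 went from 77.6 to 46.3 FPKM and from 103 to 70.2 FPKM. PPP1R15A (GADD34), which directs protein phosphatase 1 to the translation factor eIF2 alpha, went from 49.5 to 15.9 FPKM and from 70.8 to 29.4 FPKM.

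KDM6B, a histone H3 lysine 27 demethylase, gave -1.26 in KYSE510 (24 to 9.46 FPKM) and -1.17 in TE7 (19.4 to 8.05 FPKM). FADD, the adaptor of death receptors, gave -1.03 (33.2 to 15.8 FPKM) and -1.09 (9.03 to 3.72 FPKM), and PLK3, a stress-induced polo-like kinase, went from 13.6 to 4.06 FPKM and from 18.7 to 8.84 FPKM. ZBED5, derived from a DNA transposase, went from 29.9 to 12.2 FPKM and from 16.7 to 6.96 FPKM, and the zinc finger gene ZNF561 from 22.4 to 9.05 FPKM and from 11.3 to 4.97 FPKM. RP6-99M1.2, a lincRNA in GENCODE 29 on chromosome X, went from 6.84 to 1.06 FPKM and from 9.30 to 4.10 FPKM. That these 6 genes were lower at 4 h within each line follows from how they were chosen. Across lines their time points did not overlap except for FADD, whose 15.8 FPKM in KYSE510 at 4 h lay above its 9.03 FPKM in TE7 at 2 h.

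**Figure D2:**
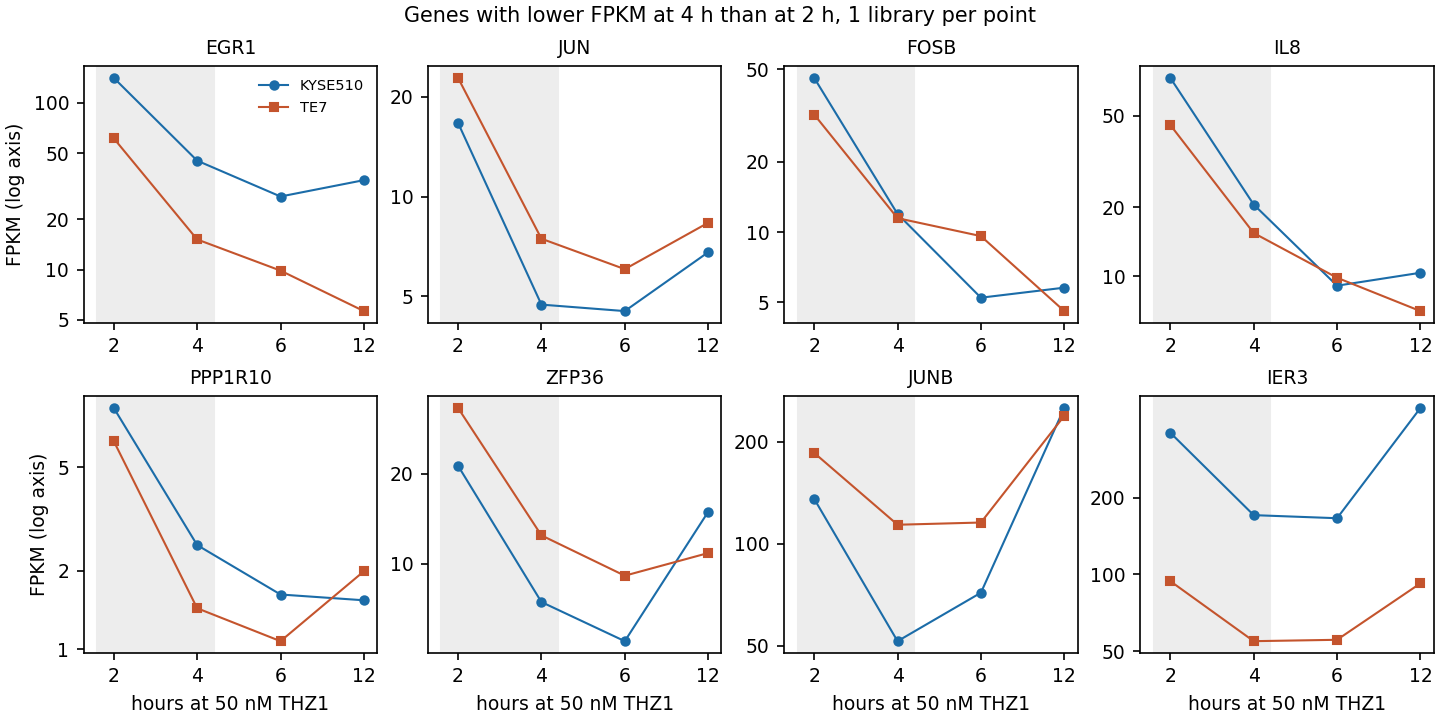
FPKM (log axis) of 8 genes lower at 4 h than at 2 h, over the 4 times at 50 nM THZ1, with evenly spaced times, 1 point per library and the 2 h to 4 h interval shaded. EGR1 went from 141 to 45.0 FPKM in KYSE510, and JUNB and IER3 stood at 252 and 448 FPKM in KYSE510 at 12 h, above their levels of 2 h.

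Beyond these groups the lower genes included cell cycle, receptor kinase and DNA repair genes, named here after their values were seen. WEE1, the kinase that holds CDK1 inactive, went in KYSE510 from 22 to 11.5 FPKM and in TE7 from 28.4 to 15.9 FPKM, and the receptor kinase gene EPHA2 from 74.0 to 39.3 FPKM and from 84.2 to 51.5 FPKM. The Hippo pathway gene AMOTL2 went in KYSE510 from 68.2 to 28.5 FPKM and in TE7 from 53.1 to 28.2 FPKM. CYR61, a secreted YAP target, went from 109 to 35.3 FPKM and from 209 to 123 FPKM. Both are in the YAP and TEAD list, where 9 of 18 (50.0%) were lower in both lines and 3 higher. Over all tested genes 44.9% were lower. With upper-quartile scaling 6 of the list were lower and 9 higher. HES1, a Notch target, gave -1.25 and -0.89.

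DNA repair genes were lower by smaller amounts. Of 34 homologous recombination and Fanconi genes, 26 (76.5%) were lower in both lines and 3 higher, beside 44.9% lower over all tested genes. Their medians were -0.26 in KYSE510 and -0.27 in TE7. None passed over all genes, and 17 were called lower in the 4-library fit, which called 10.6% of all genes lower. BLM, a RecQ helicase gene, gave -0.66 in KYSE510 (6.28 to 3.62 FPKM) and -0.68 in TE7 (16.9 to 10.2 FPKM), and its partner RMI1 gave -0.68 (11.5 to 6.83 FPKM) and -0.74 (14.3 to 8.17 FPKM). BRCA1 gave -0.48 (16.7 to 11.7 FPKM) and -0.38 (24.8 to 18.8 FPKM). Of 24 p53 targets, 17 (70.8%) were lower and 2 higher in both lines, with medians of -0.31 and -0.15. CDKN1A, the p21 gene, was lower in KYSE510 (66.6 to 41.7 FPKM) and the same in TE7 (17.7 and 17.7 FPKM).

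C2H2 zinc finger genes, the largest family of human transcription factors, were mostly lower. Of 353 tested genes with a ZNF symbol, 260 (73.7%) were lower in both lines and 24 (6.80%) higher, beside 44.9% and 26.2% over all tested genes. Their medians were -0.29 in KYSE510 and -0.23 in TE7. None passed over all genes, and 87 were called lower in the 4-library fit, beside 10.6% of all genes. ZNF genes made up 5.60% of the 125 genes lower by 1.5-fold and 1.33% of the 8444 genes at or above 5 FPKM in both lines at 2 h. ZNF274 gave -0.74 in KYSE510 (10.8 to 6.08 FPKM) and -0.88 in TE7 (8.14 to 3.97 FPKM). ZNF749 went the other way, from 7.92 to 10.0 FPKM and from 9.48 to 14.3 FPKM. Close copies within the family can share reads, and the sources used here do not say how the authors' counting split them.

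The clock list held genes on both sides. Of 14 tested, 10 (71.4%, beside 44.9% over all tested genes) were lower and 2 higher in both lines. The medians were -0.26 in KYSE510 and -0.43 in TE7. PER2, a repressor of CLOCK and BMAL1, went in KYSE510 from 13.7 to 6.98 FPKM and in TE7 from 9.99 to 5.28 FPKM, and BHLHE40 from 18 to 7.06 FPKM and from 22.3 to 13.7 FPKM. The cryptochrome gene CRY1 was the highest of the list, from 8.94 to 11.5 FPKM and from 17.4 to 20.9 FPKM. The list of TGF-beta, BMP and ID genes had 12 of 19 (63.2%, beside the same 44.9%) lower and 3 higher. SKIL, a SMAD repressor gene, gave -0.96 and -1.11, ID3 gave -0.70 and -0.71, and ID1 gave -0.68 and -0.47, whereas ID2 was higher.

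Few genes were higher by a similar amount at 4 h. RP4-800M22.1 (ENSG00000228407; chromosome 1, 52625933 to 52626272), a processed pseudogene spanning 340 bases, went in KYSE510 from 2.38 to 6.97 FPKM and in TE7 from 1.53 to 5.17 FPKM, and its reads may be shared with other copies. NNAT (ENSG00000053438), the imprinted neuronatin gene, went from 4.26 to 9.21 FPKM and from 3.92 to 9.32 FPKM. CASC19, a long non-coding gene, went from 30.3 to 59.8 FPKM and from 9.6 to 17.0 FPKM. ID2 (ENSG00000115738; chromosome 2, 8818975 to 8824583), an inhibitor of helix-loop-helix factors, went from 28.9 to 49.7 FPKM and from 13.9 to 23.9 FPKM, a change of 0.75 ± 0.11 (limma adjusted p = 0.173). In each of these genes both lines moved the same way, but only the first 2 had non-overlapping time points across lines.

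RBM14 (ENSG00000239306), a coactivator found in paraspeckles, went in KYSE510 from 81.8 to 151 FPKM and in TE7 from 44.1 to 74.1 FPKM (0.80 ± 0.10, limma adjusted p = 0.166). MT1X, a metal-binding metallothionein gene, went from 98.8 to 165 FPKM and from 77.7 to 121 FPKM, with no overlap of the time points. NXF1 (ENSG00000162231; chromosome 11, 62559595 to 62573774), the principal mRNA export receptor, went from 49.4 to 74.4 FPKM and from 56.2 to 94.1 FPKM (0.66 ± 0.08, limma adjusted p = 0.166), also without overlap. TEAD1, the DNA-binding partner of YAP, went from 6.42 to 10.5 FPKM and from 8.04 to 12.8 FPKM. The short antisense RP11-386I14.4, which spans 209 bases, was higher by 0.61 in KYSE510 and by 0.63 in TE7.

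Ranked by whichever line changed less, among genes with an ordinary symbol and at least 5 FPKM in both lines at 4 h, the next highest genes were NRG1, BCL2L11, MTHFD1L, TJP1, SYNJ2, ANKRD10, TMEM201 and ACACA. Their mean changes ran from 0.49 to 0.74. NRG1, which encodes a ligand of ERBB3 and ERBB4, went in KYSE510 from 33.2 to 64.1 FPKM and in TE7 from 45.6 to 67.3 FPKM. BCL2L11, the gene of the pro-apoptotic BIM, went from 5.89 to 9.05 FPKM and from 11.5 to 19.0 FPKM. MCL1, whose anti-apoptotic product BIM binds, went from 195 to 110 FPKM and from 271 to 194 FPKM. The list of apoptosis promoters and inhibitors went both ways. Of 24 tested, 13 (54.2%, beside 44.9% over all tested genes) were lower in both lines and 5 higher. APAF1 was lower (-0.51 in KYSE510 and -0.54 in TE7) and BID higher (0.27 and 0.11). TJP1, the tight junction gene ZO-1, went from 30.0 to 44.1 FPKM and from 32.1 to 47.2 FPKM, and ACACA, which makes malonyl-CoA for fatty acid synthesis, from 12.8 to 19.2 FPKM and from 23.2 to 32.5 FPKM. POLR2A, the largest subunit of RNA polymerase II, went from 60.1 to 77.9 FPKM and from 59.8 to 98.4 FPKM.

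**Figure D3:**
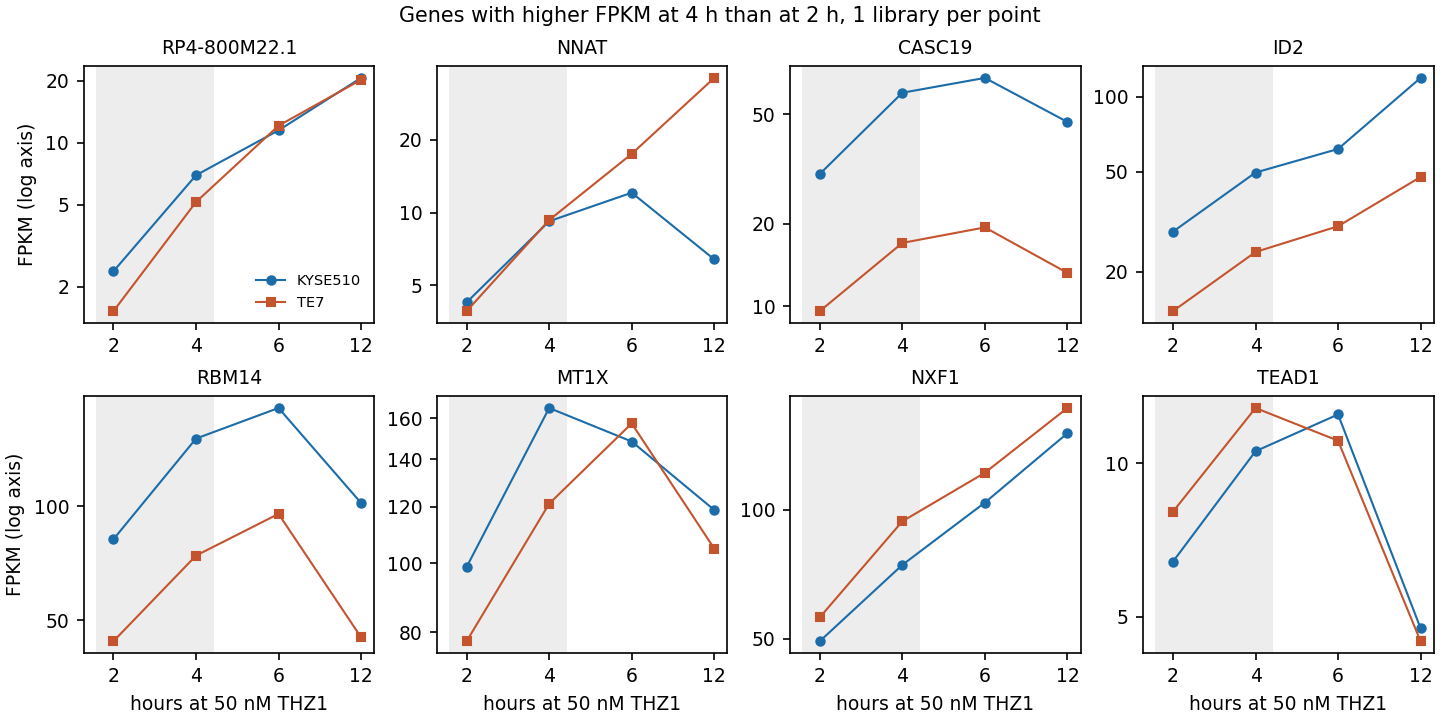
FPKM (log axis) of 8 genes higher at 4 h than at 2 h, over the 4 times at 50 nM THZ1, with evenly spaced times, 1 point per library and the 2 h to 4 h interval shaded. RP4-800M22.1, ID2 and NXF1 were highest at 12 h in both lines, whereas TEAD1 stood at 4.75 FPKM in KYSE510 and 4.48 FPKM in TE7 at 12 h, below its levels of 2 h.

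Genes of abundant housekeeping complexes were higher by small amounts. Of 84 tested cytosolic ribosomal protein genes, 80 (95.2%) were higher and 2 lower in both lines, beside 26.2% higher over all tested genes, with medians of 0.23 in KYSE510 and 0.10 in TE7; 0 passed over all genes or in the 4-library fit. RPL35 went in KYSE510 from 1117 to 1308 FPKM and in TE7 from 1764 to 2032 FPKM, while RPL22L1 was lower, from 107 to 97.6 FPKM and from 43.9 to 39.1 FPKM. Of 79 nuclear oxidative phosphorylation genes, 63 (79.7%) were higher and 3 lower, with medians of 0.19 and 0.09, and NDUFA13, a complex I subunit gene, went from 120 to 146 FPKM and from 137 to 160 FPKM. Of 38 proteasome subunit genes, 32 (84.2%) were higher and 3 lower, with medians of 0.17 and 0.11. Pseudogene copies of ribosomal protein genes can share their reads.

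Scaling by median of ratios, by upper quartile or to equal sums of FPKM left the sign of the median in each line unchanged for the immediate-early, NF-kB, MAPK, zinc finger, DNA repair, p53 and clock lists and for the ribosomal protein, oxidative phosphorylation and proteasome lists. For the ribosomal protein list the medians ran from 0.13 to 0.43 in KYSE510 and from 0.04 to 0.25 in TE7 over these scalings, and for the immediate-early list from -1.23 to -0.92 and from -0.60 to -0.40. The counts within lists depended on scaling too. With upper-quartile scaling 21 immediate-early genes were lower and 2 higher in both lines. The MAPK list then had 12 lower and 5 higher, the clock list 7 and 4, and the p53 list 11 and 8. Over all tested genes the counts were 3386 and 7329. Some lists with medians near that of all genes changed sign with the scaling in at least 1 line. Among them were the Mediator (-0.03 and -0.04), splicing (-0.04 and -0.02), YAP and TEAD (-0.12 and -0.09), P-TEFb (-0.13 and -0.09) and mitosis lists (-0.05 and -0.18), the numbers being the medians in KYSE510 and TE7 without further scaling.

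**Figure D4:**
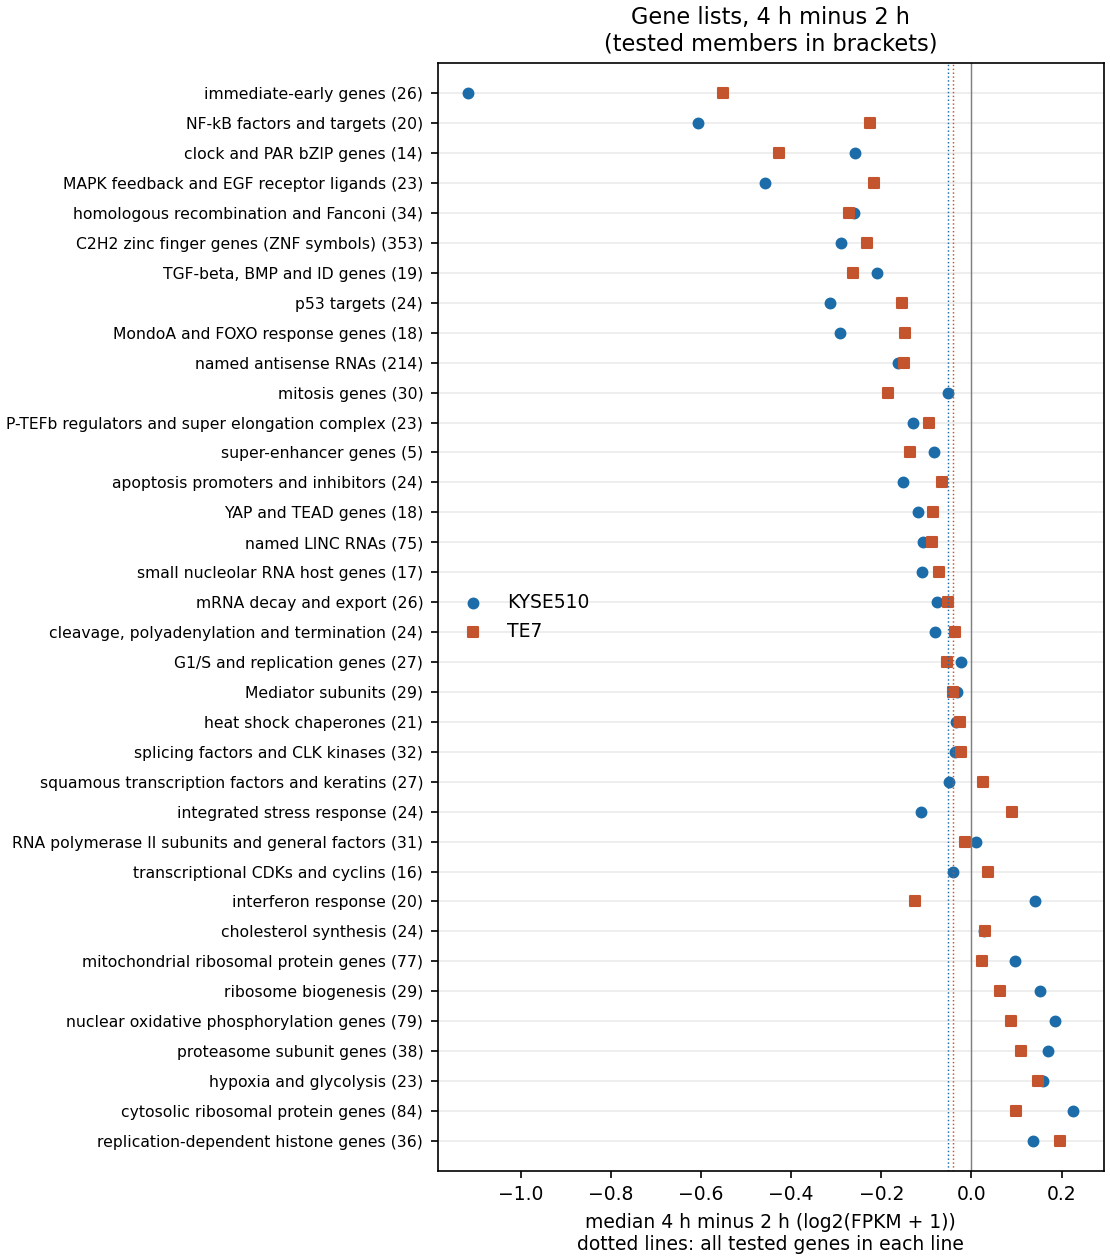
Median change from 2 h to 4 h on the log2(FPKM + 1) scale for each gene list, in KYSE510 (circles) and TE7 (squares), with the number of tested members in brackets and dotted lines at the medians of all tested genes (-0.05 and -0.04). The immediate-early list lies lowest at -1.12 in KYSE510 and -0.55 in TE7, and the ribosomal protein list stands at 0.23 and 0.10.

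Among the kinases bound by THZ1, CDK7 stood at 23.7 and 25.2 FPKM in KYSE510 and at 24.1 and 24.6 FPKM in TE7 (0.06 ± 0.11, limma adjusted p = 0.906). CDK12 stood at 23.9 and 23.1 FPKM and at 17.5 and 16.6 FPKM (-0.06 ± 0.15), and CDK13 went from 11.5 to 9.15 FPKM and from 8.55 to 6.02 FPKM (-0.37 ± 0.20). CDK13 was lower by 0.30 in KYSE510 and by 0.44 in TE7 (limma adjusted p = 0.538). The authors' bounds for CDK13 did not overlap in either line, as for 13.9% of tested genes in this direction. The 4-library fit called CDK13 lower, as it did 10.6% of all genes. Among PAK4, RUNX1, DNAJB1, SREBF2 and YAP1, a list chosen by the aim of the study, 5 of 5 were lower in both lines. Over all tested genes the share was 44.9%. The medians of the list were -0.08 and -0.14, with 0 passing. DNAJB1, a heat shock co-chaperone gene, was the lowest of them at -0.34 ± 0.17 (108 to 87.9 FPKM and 64.5 to 49.5 FPKM), and PAK4 stood at 27.4 and 26.8 FPKM and at 24.1 and 23.9 FPKM. With upper-quartile scaling CDK12, PAK4, RUNX1, SREBF2 and YAP1 had positive values.

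Of 27 squamous transcription factor and keratin genes, 11 (40.7%) were lower and 10 (37.0%) higher in both lines, beside 44.9% and 26.2% over all tested genes. TP63, the master regulator of stratified epithelium, went in KYSE510 from 92.2 to 71.4 FPKM and in TE7 from 65.8 to 33.5 FPKM (-0.66 ± 0.21, limma adjusted p = 0.326). SOX2 gave -1.23 in KYSE510 (102 to 42.7 FPKM) and -0.43 in TE7 (6.55 to 4.60 FPKM), and ELF3, an epithelial ETS factor gene, gave -0.76 (65.5 to 38.2 FPKM) and -0.63 (45.6 to 29.2 FPKM). The keratin gene KRT13 went from 1209 to 1325 FPKM and from 159 to 177 FPKM, and KRT8 from 432 to 475 FPKM and from 207 to 233 FPKM.

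Genes lower by 1.5-fold or more at 4 h in both lines had a shorter median span than expressed genes in general, and so did the few higher ones. The locus span in the authors' tables had a median of 5705 bases for the 16 genes lower by 2-fold and 12887 bases for the 125 lower by 1.5-fold, against 29572 bases for the 8444 genes at or above 5 FPKM in both lines at 2 h. In GENCODE 29, matched by identifier, 50.0% of the 16 and 28.2% of the 124 matched among the 125 had at most 3 exons, against 9.20% of the 8345 matched comparison genes. The median number of exons was 3.5 and 5, against 10. The 8 genes higher by 1.5-fold had a median span of 4042 bases and a median of 3 exons, and 62.5% of them had at most 3 exons. That set is small, and 5 of the 8 are protein-coding. The next highest genes named above had longer loci, from 26004 bases for TMEM201 to 1125647 bases for NRG1. Whether short span is particular to the lower genes was not tested. These are descriptions with no test, over gene sets that differ in level and family.

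**Figure D5:**
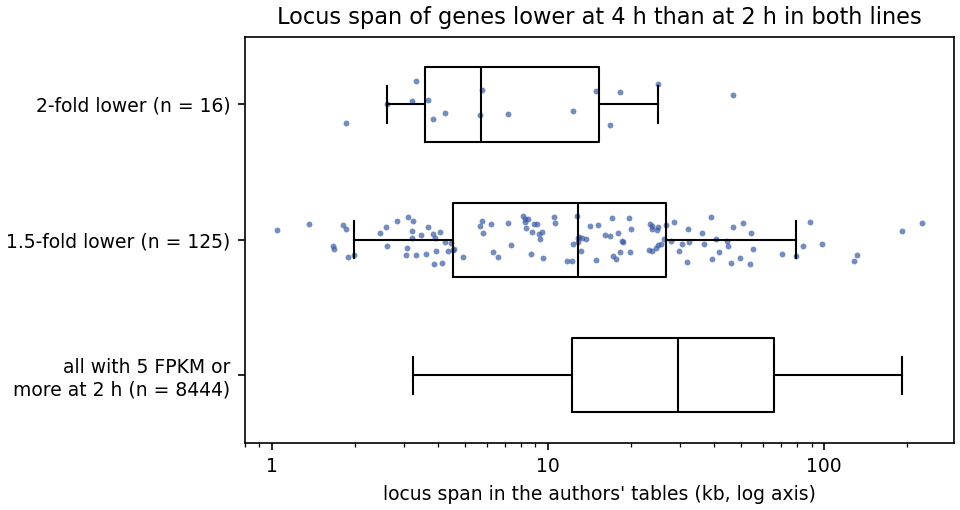
Locus span in the authors' tables (kb, log axis) for the 16 genes at least 2-fold lower and the 125 at least 1.5-fold lower at 4 h in both lines, and for the 8444 genes at or above 5 FPKM in both lines at 2 h. Boxes show quartiles with the median, whiskers the central 90% of genes and points the genes of the smaller sets, and the medians are 5705, 12887 and 29572 bases.

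In the 250 bases before the RefSeq start, searched on both strands, TATAAA was found in 4 of 15 matched genes lower by 2-fold (26.7%), in 13 of 102 lower by 1.5-fold (12.7%), in 4.69% of 6913 matched genes at or above 5 FPKM in both lines at 2 h and in 11.1% of all 27305 promoters. TGACGTCA, the CRE bound by CREB and ATF factors, was found in 13.3%, 6.86%, 3.38% and 1.77% of the same sets, and TGANTCA, the AP-1 site with N for any base, in 6.67%, 5.88%, 3.33% and 6.60%. GGGCGG was found in 66.7%, 66.7%, 70.7% and 42.3%. The E-box CACGTG as well as the CCAAT box and the ETS core were searched too, and a match was counted whether or not it overlapped that of another motif. A match is a description of letters, and with 15 genes 1 gene is a share of 6.67%. Of the 8 genes higher by 1.5-fold only 3 had a promoter entry, so that set was not described.

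Levels at 6 h and 12 h did not enter the fold counts between 2 h and 4 h, though they entered limma's standard errors. Of the 125 genes lower by 1.5-fold, 89 (71.2%) were lower again at 12 h than at 6 h in both lines and 13 (10.4%) were higher. Of the 16 genes lower by 2-fold, 8 (50.0%) were lower again and 3 (18.8%), JUN, ZFP36 and RP6-99M1.2, were higher in both lines. For the 8444 genes at or above 5 FPKM in both lines at 2 h the shares were 66.0% lower and 18.7% higher. JUN stood at 4.50 and 6.78 FPKM at 6 h and 12 h in KYSE510 and at 6.03 and 8.33 FPKM in TE7. JUNB, lower by 1.5-fold at 4 h, went in KYSE510 from 71.6 FPKM at 6 h to 252 FPKM at 12 h and in TE7 from 116 to 239 FPKM, and IER3 from 166 to 448 FPKM and from 55.6 to 92.4 FPKM. EGR1 was at 27.4 and 34.4 FPKM in KYSE510 and at 9.86 and 5.64 FPKM in TE7.

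Among the genes at higher levels, ID2 continued to 61.7 and 119 FPKM at 6 h and 12 h in KYSE510 and to 30.3 and 47.7 FPKM in TE7, and NXF1 to 104 and 151 FPKM and to 122 and 173 FPKM. RBM14 reached 181 FPKM at 6 h in KYSE510 and 95.4 FPKM in TE7, and stood at 102 and 45.1 FPKM at 12 h. The interval from 4 h to 6 h, which is as long and shares the 4 h libraries, held 2 genes lower and 0 higher by 2-fold, and 50 and 4 by 1.5-fold. The longer interval from 6 h to 12 h held 419 lower and 28 higher by 2-fold.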

How the data were processed

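The data are gene tables from 12 RNA-seq libraries of KYSE510 and TE7, of which 8 at 50 nM THZ1 (2, 4, 6 and 12 h) entered the fit. Polyadenylated RNA was extracted with an RNeasy kit, made into TruSeq libraries and sequenced on a HiSeq, per the labels' protocols. The authors deposited FPKM per gene with 95% bounds, with Cufflinks-style columns per the file headers. The submitters' processing notes name STAR, Cufflinks and hg19; the sources used here do not give versions, settings or annotation. Each table held 57869 lines for 57755 identifiers, and the deposited FPKM of 108 identifiers with several loci were added up.

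Genes reaching 1 FPKM in 2 or more of the 8 libraries were tested as log2(FPKM + 1) with limma 3.58.1 in R 4.3.3 (trend=TRUE), with a term per time and cell line as block, two-sided, at a Benjamini-Hochberg adjusted p under 0.05 over all 14797 genes. There were 3 residual degrees of freedom plus 3.20 from the prior. Same-numbered libraries are the same line, so the pairing holds by design. Fold counts used 5 FPKM at the higher time point. The fit was tested on simulated data.

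Lists and rules were chosen with earlier results of these data known. Named genes were the 15 largest rises and falls with an ordinary symbol, ranked by the line that changed less, the THZ1 targets, the list chosen by the study, and up to 4 members per list; the others in the text were picked after their values were seen. Exon counts and biotypes came from GENCODE 29 by identifier, and promoters from RefSeq on GRCh38.p14 by symbol (15 of 16 genes lower by 2-fold and 102 of 125 lower by 1.5-fold matched). Depth in fragments is unknown. Alternatives varied loci, pseudocount, filter, scaling, variance model, block and libraries, and left out 1 library at a time. DMSO libraries and those at the higher dose entered only the alternative with all 12 libraries.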

Additional observations from a re-analysis of the deposited data

Results flagged for a closer look

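The lines went opposite ways in the interferon response list and in FOS, among other results, with 1 library per line and time. The interferon response list, with 20 tested members, had a median change from 2 h to 4 h of 0.14 in KYSE510 and -0.12 in TE7 on the log2(FPKM + 1) scale. ISG15, an interferon-induced ubiquitin-like modifier, was nonetheless higher in both, in KYSE510 from 15.2 to 21.3 FPKM and in TE7 from 181 to 203 FPKM. With upper-quartile scaling the TE7 median was 0.01, so the opposite direction there depends on scaling. FOS was higher by 0.56 in KYSE510 and gave -0.29 in TE7. Lists with opposite medians in KYSE510 and TE7 included the integrated stress response list (-0.11 and 0.09). None of these differences between the lines was tested.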

How the results depend on the processing

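With cell line as the replicate block and 8 libraries, 0 genes passed in either direction; with no replicate block the count was also 0, and 150 genes instead of 1722 had an unadjusted p under 0.05. The fit on the 4 libraries of 2 h and 4 h called 445 higher and 1515 lower, and that on 6 libraries called 76 and 398; these fits have fewer libraries, and the cause of the difference was not tested. Leaving out 1 library gave 0 to 76 higher (1 without KYSE510 at 2 h, 67 and 76 without KYSE510 or TE7 at 12 h) and 0 to 366 lower (2 without TE7 at 4 h, 308 and 366 without KYSE510 or TE7 at 12 h). All 12 libraries, other scalings, pseudocounts, filters and variance models called 0, with 294 to 2625 unadjusted. The 2-fold counts of 1 higher and 16 lower became 2 and 29 with a pseudocount of 0.1, 0 and 6 with a pseudocount of 5, 0 and 25 with equal sums of FPKM, 1 and 9 with upper-quartile scaling, 8 and 125 at 1.5-fold, and 4 and 24 with a floor of 1 FPKM. They cannot be had without a library of 2 h or 4 h.

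Of 38 genes followed, the 30 largest rises and falls kept their direction in every alternative that gave a value. PPP1R10 had no value with the mean FPKM filter of 5. These 30 were chosen for large changes shared by both lines, so their direction was unlikely to change. Alternatives in the variance model, block, filter or libraries other than those of 2 h and 4 h leave the mean change as it was and could not alter a direction. Another 6 of the genes followed, all near 0, changed sign. With median-of-ratios scaling CDK12 was 0.055, PAK4 0.0905 and SREBF2 0.082. With upper-quartile scaling CDK12 was 0.11, PAK4 0.15, RUNX1 0.024, SREBF2 0.14 and YAP1 0.039, and with equal sums CDK7 was -0.014. Leaving out 1 library of 2 h or 4 h changed the sign in 4 genes, with a range of -0.1988 to 0.0851 for CDK12, -0.0263 to 0.1411 for CDK7, -0.1096 to 0.0656 for PAK4 and -0.3647 to 0.0722 for RUNX1 over the left-out libraries. Depth limits low genes most, since changes under a few FPKM are shrunk by the pseudocount.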
